A study of Mus musculus with 2 samples.

Results

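Genes of DNA replication and of deoxynucleotide supply were read in whole mouse lung at stage E14.5, in 1 Prmt5 knockdown library and 1 control library. The set holds 44 genes chosen by symbol: the origin recognition complex, licensing factors, the replicative helicase, polymerases, the clamp and its loader, the enzymes that finish Okazaki fragments, deoxynucleotide enzymes and the histone chaperone CAF-1. All 44 were found among the 41709 entries of the deposited tables, and all 44 reached 50 reads in at least 1 library. The fewest reads of any of them in either library were 228, for Cdc45 in the control.

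Both libraries were polyadenylated RNA of C57BL/6 embryonic lung, each from 7 lungs pooled before sequencing, so neither genotype has a replicate. The genotype label of the first is Prmt5 knockdown, and its title also names Shh. How Prmt5 was lowered, in which cells, and whether an Shh allele was altered are not given in the labels, and the control is described as wild type in the design text. Prmt5 is an arginine methyltransferase that acts on histones, Sm proteins and other substrates. Prmt5 (chromosome 14) had 2127 reads in the knockdown library and 2704 in the control, 1.35-fold lower, which does not reach the 1.5-fold used here to count a gene as lower. Shh (chromosome 5), the hedgehog ligand of lung epithelium, had 109 reads in the knockdown library and 1124 in the control, 10.9-fold lower, which does.

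Replication starts at origins that are marked by the origin recognition complex. CDC6 and CDT1 load the MCM helicase there, geminin blocks CDT1 so that an origin fires only once per cycle, and CDC45 with the GINS complex turns the loaded ring into the moving helicase. Primase and its polymerase start each strand, and the polymerases that extend it run on a PCNA clamp. Ribonucleotide reductase, thymidylate synthase and thymidine kinase supply deoxynucleotides. Most of these genes are switched on together by E2F factors as cells enter S phase, and their RNA follows the share of cycling cells in a growing organ such as the branching lung.

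Most replication genes stayed within 1.5-fold between the libraries. The ratio given is knockdown over control of read counts scaled by the trimmed mean of M values, with a 95% interval that covers counting error alone. A gene was counted as higher or lower when its ratio reached 1.5 in that direction and the interval excluded 1. Of the 44 genes, 3 were higher (Cdc45, Rrm2 and Orc5), 1 was lower (Pole) and 40 did not pass. Across all 14569 measured genes, 20.7% were higher and 12.3% lower by the same rule. Among the 11678 genes with at least 200 reads in 1 library, 16.7% were higher and 10.8% lower. The median log2 ratio of the 44 genes was 0.02, against -0.01 for all measured genes, and 34 of the 44 lay within a ratio of 5 to 4 in either direction, or 77.3%, against 45.6% of all measured genes. The middle 50% of their log2 ratios spanned 0.34, against 0.76 for all measured genes. Among the genes with at least 200 reads in 1 library, which include all 44, 50.1% lay within 5 to 4. The middle 50% of that set spanned 0.64. Counting intervals excluded 1 for 13 genes above and 19 below, at any size of ratio, and for 37.2% and 37.5% of all measured genes. With 1 library per group there is no test of these differences.

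**Figure D1:**
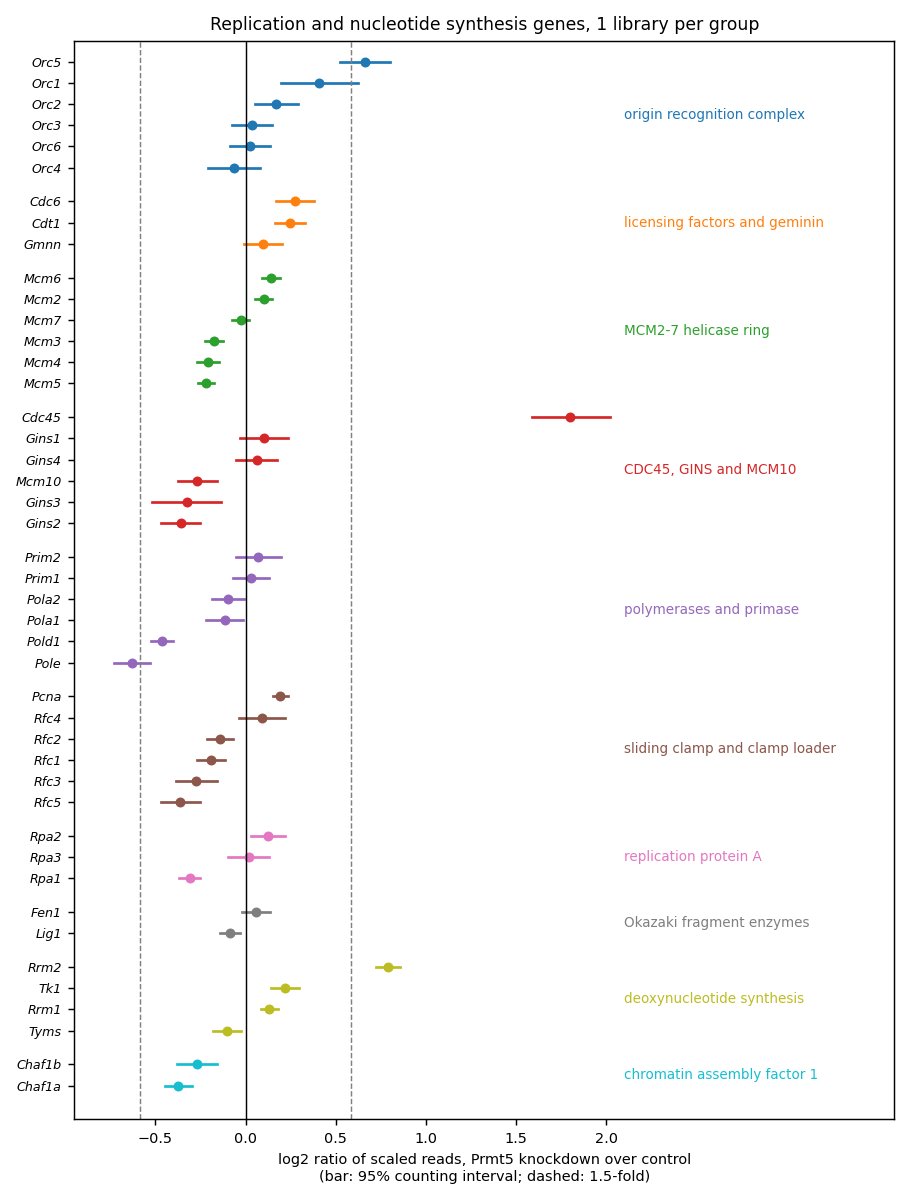
Log2 ratio of scaled reads, Prmt5 knockdown over control, for each of the 44 genes (points) with its 95% counting interval (bars), grouped and coloured by role. Cdc45, Rrm2 and Orc5 lie right of the upper dashed line at 1.5-fold and Pole lies left of the lower one, and the other 40 genes lie between the lines.

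**Figure D2:**
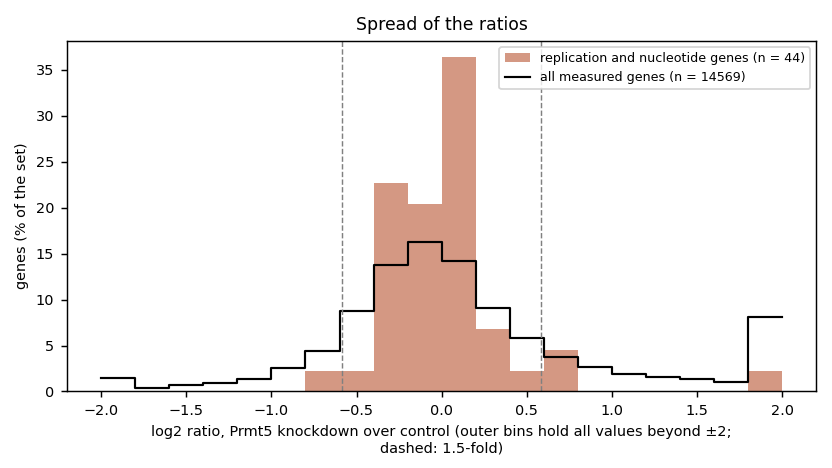
Percent of the 44 replication and nucleotide genes (filled bars) and of all 14569 measured genes (black line) in each bin of the log2 ratio, Prmt5 knockdown over control. The filled bars are narrower around 0, with 34 of 44 genes within a ratio of 5 to 4 against 45.6% of all measured genes. Of genes with at least 200 reads in 1 library, 50.1% lay within that ratio. Cdc45 is the 1 gene of the set in the outermost right bin.

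The summed reads of the 44 genes were 5167 CPM (the unit of reads scaled to library size) in the knockdown library (5138 to 5195, exact Poisson) and 5228 CPM in the control (5199 to 5257), a log2 ratio of -0.02. Marker genes of other tissues differed far more between the same libraries. All 11 liver genes were higher, with summed reads of 12160 CPM in the knockdown library and 91.2 in the control. All 12 heart muscle genes (7228 and 234 CPM) and all 10 skeletal muscle genes (1052 and 29.9 CPM) were higher as well. The 11 red blood cell and erythroblast genes found, of 12 listed, were all higher (36100 and 9310 CPM), with the erythroblast factors Gata1 (2006 and 60 reads) and Klf1 (3789 and 73 reads) among them. Of 7 measured immune genes 6 were higher (8 listed, 231 and 110 CPM), and so were all 4 measured thymus genes (6 listed, 21.3 and 0.554 CPM), of which Ptcra had 0 control reads. Lung epithelium genes were lower in 10 of 12 cases (572 and 1899 CPM). Lung mesenchyme genes were lower in 6 of 8, with summed reads of 5035 and 4788 CPM, of which Col1a1 alone gave 4568 and 3582 CPM. No lung marker was at 0 reads in either library, and the lung epithelial factor Nkx2-1 had 895 reads in the knockdown library and 7550 in the control. The part of these tissues in the replication gene reads was not tested. In bulk RNA, fewer cells of a type and less RNA per cell cannot be told apart.

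Levels per gene length ran in nearly the same order in both libraries. The authors' FPKM values (fragments scaled by gene length and library total) of the 44 genes ran between 4.67 and 320 in the knockdown library (median 40.0) and between 3.27 and 303 in the control (median 43.9). All measured genes had medians of 8.92 and 9.02 FPKM. The order of the 44 genes had a Spearman rho of 0.97 between the libraries (0.89 over all measured genes), a description over genes whose lengths and read totals are shared. All measured genes include some with 0 reads in a library, whereas the 44 had at least 228 in each. These rho values are therefore not matched for depth. Pcna, the sliding clamp, was first in both with 320 FPKM in the knockdown library and 303 in the control. Mcm7 was second in both (116 and 128 FPKM), and the third place was held by Tk1 in the knockdown library (101 FPKM) and by Mcm5 in the control (118 FPKM). At the low end, Orc1 had 4.67 FPKM in the knockdown library and 3.79 in the control, Gins3 had 6.66 and 9.01, and Pole had 7.64 and 12.8. Cdc45 was last in the control at 3.27 FPKM and 40th of 44 in the knockdown library at 10.6.

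**Figure D3:**
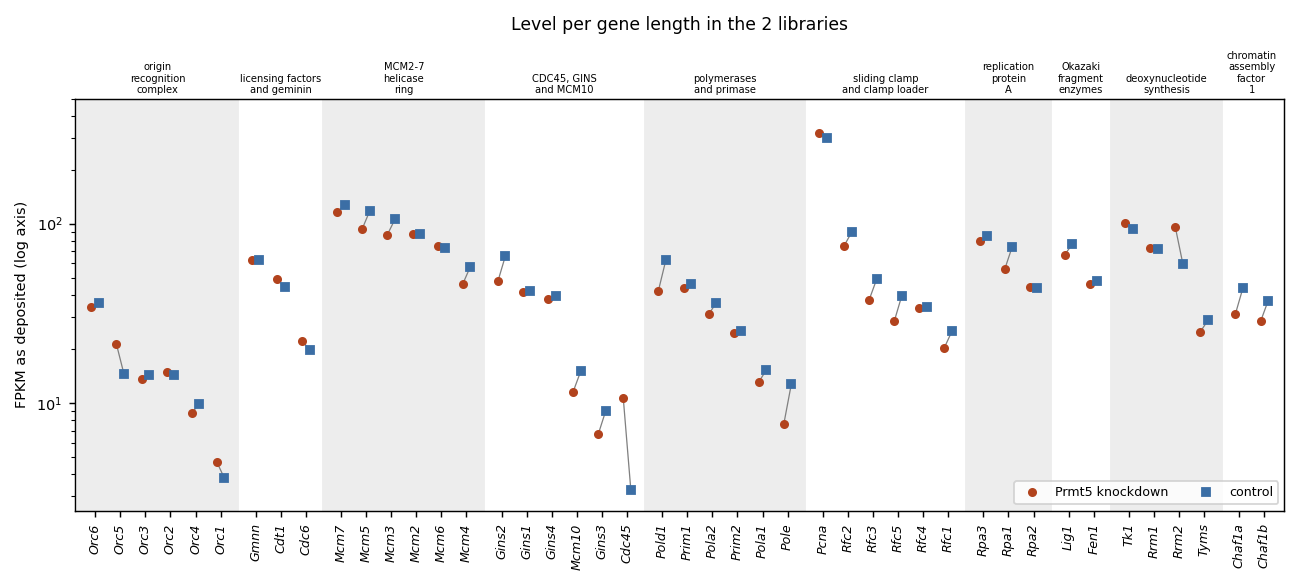
Deposited FPKM (log axis) of each of the 44 genes in the Prmt5 knockdown library (circles) and the control library (squares), grouped by role, with a line joining the values of 1 gene. The pairs lie close together over a range from Pcna at 320 and 303 FPKM to Orc1 at 4.67 and 3.79, and the longest line is that of Cdc45 (10.6 and 3.27).

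Of the origin recognition complex, which binds origins and stays there as the platform for loading, 1 of 6 subunits was higher and none lower. Across all measured genes, 20.7% were higher and 12.3% lower by the same rule. Orc5 (NCBI gene 26429, chromosome 5) had 1111 reads in the knockdown library and 662 in the control, 1.58-fold higher with a log2 ratio of 0.66 (0.52 to 0.80). It did not reach 1.5-fold when scaled by total counts (0.55) or as FPKM with a pseudocount of 0.1 or 1 (0.55 and 0.52). Orc1, the subunit whose level rises and falls with the cycle, had 428 and 304 reads (0.41, 0.19 to 0.63). Orc4 was the lowest of the complex with 807 reads in the knockdown library and 796 in the control (-0.06, -0.21 to 0.08). Read against Orc4, which removes the scaling, Orc5 was 1.66-fold higher (Woolf interval 1.44 to 1.90), a pair picked after the values were seen. Orc2, Orc3 and Orc6 had log2 ratios of 0.17, 0.04 and 0.02. A transcribed pseudogene, Gm15421, lies within Orc5 with 67 and 62 reads of its own. The summed reads of the complex were 260 CPM in the knockdown library and 233 in the control (log2 0.16, between 0.05 and 0.23 over the scalings tried).

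The licensing factors and geminin did not pass the rule, and all 3 log2 ratios were above 0. Cdc6, the loading ATPase, had 1720 reads in the knockdown library and 1343 in the control (log2 0.27, 0.17 to 0.38). Cdt1, which brings the MCM ring to the origin, had 2764 and 2198 reads (0.25, 0.17 to 0.33). Its inhibitor Gmnn had 1556 and 1373 reads (0.10, -0.01 to 0.20), an interval that includes no difference. The level of Cdt1 relative to Gmnn was 0.783 per length in the knockdown library and 0.706 in the control. The ratio of these ratios was 1.11 (1.01 to 1.22), for a pair picked after the values were seen.

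None of the 6 subunits of the MCM ring, the ATPase motor that unwinds DNA, passed the rule. Mcm6 was the highest with 7169 reads in the knockdown library and 6139 in the control (log2 0.14, 0.09 to 0.19), followed by Mcm2 with 7611 and 6700 reads (0.10, 0.05 to 0.15). Mcm5 was the lowest with 7748 and 8526 reads (-0.22, -0.27 to -0.18), and Mcm4 had 4265 and 4648 (-0.21). Mcm3 and Mcm7 lay between them at -0.17 and -0.03. At this depth the counting intervals are narrow, so that 5 of the 6 exclude a ratio of 1 although the whole ring spanned 0.36 on the log2 scale. Between the libraries, Mcm6 relative to Mcm5 differed 1.29-fold (1.23 to 1.35), but these are the extremes of the ring, picked after the values were seen. Levels per length ran between 46.0 FPKM for Mcm4 and 116 for Mcm7 in the knockdown library, and between 57.4 and 128 FPKM for the same genes in the control. The ring's summed reads were 1624 CPM in the knockdown library and 1694 in the control (log2 -0.06), and the value was just above 0 when TMM factors came from genes with 50 control reads (0.0046).

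E2F-type letters were found in the promoters of part of the set. Of the 44 genes, 36 have an entry in the RefSeq promoter table of GRCm38.p6, which spans 250 bases before to 50 after each start. The E2F-type letters searched were TTTCCCGC, TTTGGCGC, TTTCGCGC and TTTGCCGC on either strand, and 13 of the 36 genes held at least 1 of them (36.1%), against 704 of 27025 genes in the table (2.60%). CCAAT on either strand was found in 23 of 36 (63.9%), against 41.1% of the table. TTTGAA on either strand, the core of the element of mitotic genes, was found in 4 of 36 (11.1%), against 20.2% of the table, and 16 of 23 mitosis genes with an entry held it (69.6%). The 13 genes with an E2F-type match had a median log2 ratio of -0.09 and the 23 without had 0.03. A match is a run of letters and not a shown binding site. The 4 MCM promoters with such a match are printed 5′ to 3′ on the gene's strand, with E2F-type and CCAAT letters of either strand in capitals, and matches that overlap or touch merge into 1 run of capitals.
Mcm3 (chr1:20820263-20820562, minus strand): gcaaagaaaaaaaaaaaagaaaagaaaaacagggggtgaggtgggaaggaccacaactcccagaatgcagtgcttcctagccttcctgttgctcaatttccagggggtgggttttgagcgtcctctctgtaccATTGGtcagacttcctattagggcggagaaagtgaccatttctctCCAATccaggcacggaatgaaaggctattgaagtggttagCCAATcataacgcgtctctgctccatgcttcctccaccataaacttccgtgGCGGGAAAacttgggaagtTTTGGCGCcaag
Mcm5 (chr8:75109259-75109558, plus strand): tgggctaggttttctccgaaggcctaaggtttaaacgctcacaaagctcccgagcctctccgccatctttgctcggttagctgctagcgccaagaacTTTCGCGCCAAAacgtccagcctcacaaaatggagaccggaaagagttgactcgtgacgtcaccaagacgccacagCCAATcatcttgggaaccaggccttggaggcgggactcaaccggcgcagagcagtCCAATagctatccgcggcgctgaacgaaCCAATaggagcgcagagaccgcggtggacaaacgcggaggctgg
Mcm6 (chr1:128359656-128359955, minus strand): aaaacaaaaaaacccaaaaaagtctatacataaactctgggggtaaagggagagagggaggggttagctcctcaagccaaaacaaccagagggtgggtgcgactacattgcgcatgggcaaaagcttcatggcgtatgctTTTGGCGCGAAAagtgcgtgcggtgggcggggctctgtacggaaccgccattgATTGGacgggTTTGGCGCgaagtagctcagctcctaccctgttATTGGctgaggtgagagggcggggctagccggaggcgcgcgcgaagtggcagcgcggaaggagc
Mcm7 (chr5:138171834-138172133, minus strand): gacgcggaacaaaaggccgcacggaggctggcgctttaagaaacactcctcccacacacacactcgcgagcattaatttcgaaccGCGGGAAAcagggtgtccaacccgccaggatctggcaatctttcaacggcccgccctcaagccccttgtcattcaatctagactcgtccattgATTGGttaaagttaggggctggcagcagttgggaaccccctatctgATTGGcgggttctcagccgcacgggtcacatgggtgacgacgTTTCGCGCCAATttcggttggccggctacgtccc

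Among the factors that activate the ring, Cdc45 stood apart. It had 843 reads in the knockdown library and 228 in the control, 3.48-fold higher with a log2 ratio of 1.80 (1.59 to 2.02), the highest of the 44 genes. None of the other 5 passed. Gins1 was the next of the group with 991 and 871 reads (0.10, -0.03 to 0.24), and Gins2, another subunit of the GINS ring, was the lowest with 1276 and 1546 reads (-0.36, -0.47 to -0.25). Mcm10, an initiation factor that binds the helicase, had 1350 and 1533 reads (-0.27, -0.37 to -0.16), Gins3 had 415 and 491 (-0.33) and Gins4 had 1343 and 1214 (0.06). With Cdc45 included, the group summed to 250.1 CPM in the knockdown library and 250.8 in the control. Cdc45 alone gave 33.9 and 9.72 CPM of these, so the near equal sums do not hold for the other 5 genes. As proteins, CDC45 and GINS join the same helicase. Per length, Cdc45 was at 0.253 of the level of Gins1 in the knockdown library and at 0.0779 in the control.

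The genes around Cdc45 differed between the libraries in both directions. Cdc45 (NCBI gene 12544) lies on chromosome 16 from 18780447 to 18811972 (GRCm38), and it overlaps Ufd1, a gene of protein quality control, by 237 bases. Whether counting used strand is not given in the sources used here, so reads of the overlap cannot be assigned. Of the 10 nearest measured genes on each side, 7 were higher, 6 lower and 7 did not pass, with log2 ratios between -4.93 and 4.40. Their median size of log2 ratio, sign left aside, was 0.88, against 0.36 for all measured genes and 0.33 for the 436 measured genes of chromosome 16, of which 18.6% were higher and 11.9% lower. Ufd1 had 467 reads in the knockdown library and 68 in the control (2.69) and the mitochondrial ribosomal gene Mrpl40 had 256 and 11 (4.40). Txnrd2 (1.88) and Ranbp1 (1.83), the genes of mitochondrial thioredoxin reductase and of a Ran-binding protein, were also higher, as were A930003A15Rik (2.42), Arvcf (0.92) and Slc25a1 (0.84). On the lower side, the palmitoyltransferase gene Zdhhc8 had 21 and 617 reads (-4.93) and the septin gene Septin5 had 44 and 707 (-4.07), followed by Lamp3 (-1.28), Gnb1l (38 and 72 reads), Trmt2a (-0.82) and Yeats2 (-0.60). The gene lengths behind the FPKM values exceeded the span of Cldn5 (2832 bp, 18776847 to 18778262) and of Trmt2a (7416 bp, 18248847 to 18254772). The same held for Slc25a1 (3356 bp, 17925211 to 17928219) but not for Cdc45 (3086 bp). Levels per length in this stretch rest on these lengths. How the annotation and multi-mapping reads bear on its counts was not tested, nor was the part of this stretch in the value of Cdc45. The promoter of Cdc45, the gene of the highest ratio, held 0 E2F-type and 2 TTTGAA matches. It is printed with CCAAT letters of either strand in capitals, and the TTTGAA letters are not marked.
Cdc45 (chr16:18811923-18812222, minus strand): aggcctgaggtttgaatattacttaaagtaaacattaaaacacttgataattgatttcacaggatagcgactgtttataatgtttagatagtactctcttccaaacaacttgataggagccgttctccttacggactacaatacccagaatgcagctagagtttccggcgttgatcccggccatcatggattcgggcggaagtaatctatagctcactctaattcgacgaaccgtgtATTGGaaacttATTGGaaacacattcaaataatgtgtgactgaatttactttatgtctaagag

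**Figure D4:**
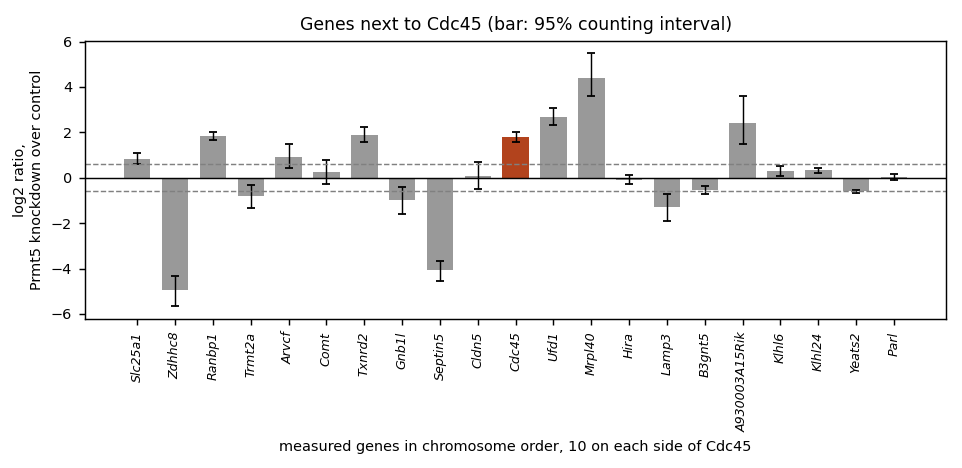
Log2 ratio, Prmt5 knockdown over control, with 95% counting intervals for Cdc45 (coloured bar) and the 10 measured genes on each side of it in chromosome order. The bars run from -4.93 (Zdhhc8) to 4.40 (Mrpl40), with 7 genes higher, 6 lower and 7 not past 1.5-fold (dashed lines) around Cdc45 at 1.80.

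Polymerase genes held the only member that was lower. Pole, the catalytic subunit of the leading strand polymerase (NCBI gene 18973, chromosome 5), had 1406 reads in the knockdown library and 2053 in the control, 1.55-fold lower with a log2 ratio of -0.63 (-0.73 to -0.53). It missed 1.5-fold when TMM factors came from genes with 50 control reads (-0.56). Pold1, the catalytic subunit of the lagging strand polymerase, had 3740 and 4866 reads (-0.46, -0.53 to -0.40) and did not pass. Pola1 and Pola2 of the polymerase that starts each strand had log2 ratios of -0.12 and -0.10, and the primase subunits Prim1 and Prim2 had 0.03 and 0.07. Prim2 was the highest of this group with 1103 and 991 reads (-0.05 to 0.20). The group summed to 461 CPM in the knockdown library and 556 in the control (log2 -0.27, between -0.38 and -0.20 over the scalings).

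The accessory subunits of the same enzymes, from a list of other replication genes, gave values nearer to 0 for polymerase epsilon. Pole2 had 614 and 589 reads (-0.02), Pole3 had 1325 and 1220 (0.03) and Pole4 had 1493 and 1386 (0.02). Pole relative to Pole2 was 0.657-fold (0.576 to 0.750) in the knockdown library against the control, a pair picked after the values were seen. For polymerase delta, Pold2 had 2799 and 3762 reads (-0.51) and Pold3 had 1541 and 1510 (-0.05). None of these passed the rule, although Pold2 did as a lower gene with total counts and with FPKM. Pold4 had 3 and 2 reads and was not measured.

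None of the clamp, clamp loader and single-strand binding genes passed the rule. Pcna had 10427 reads in the knockdown library and 8614 in the control (log2 0.19, 0.15 to 0.23), the highest of its group. The loader subunits that open the clamp lay below it, from Rfc4 with 1059 and 939 reads (0.09) to Rfc5 with 1275 and 1546 (-0.36, -0.47 to -0.25). Rfc1, Rfc2 and Rfc3 lay between these at -0.19, -0.14 and -0.27. Relative to Rfc5, Pcna differed 1.47-fold between the libraries (1.36 to 1.59), but these are the extremes of the group, picked after the values were seen. Replication protein A coats the exposed strand as a complex of 3 subunits, and its genes had 4392 and 5132 reads for Rpa1 (-0.31, -0.37 to -0.25), 2042 and 1766 for Rpa2 (0.13, 0.03 to 0.22) and 1313 and 1224 for Rpa3 (0.02). The large subunit Rpa1 was thus lower relative to Rpa2 by a ratio of 0.740 (0.686 to 0.798), again the extremes picked after the values were seen. The 3 genes summed to 312 CPM in the knockdown library and 346 in the control. The flap nuclease Fen1 (2714 and 2459 reads, 0.06) and the DNA ligase Lig1 (5463 and 5472 reads, -0.09), which trim and seal Okazaki fragments, did not pass either.

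Deoxynucleotide genes held the member with the most reads among those past the rule. Rrm2, the small subunit of ribonucleotide reductase that carries its radical (NCBI gene 20135, chromosome 12), had 5403 reads in the knockdown library and 2950 in the control, 1.73-fold higher with a log2 ratio of 0.79 (0.72 to 0.85). Under the alternatives for scaling, prior count and FPKM it ran between 0.67 and 0.85. The large subunit Rrm1 had 7536 and 6487 reads (0.13, 0.08 to 0.18). Rrm2 relative to Rrm1 was thus 1.31 per length in the knockdown library and 0.834 in the control. The ratio of these ratios was 1.58 (1.49 to 1.67), for a pair picked after the values were seen. Rrm2b, the paralog of Rrm2 that p53 induces, was low in both libraries with 270 and 176 reads (2.67 and 1.99 FPKM, log2 0.53, 0.25 to 0.82) and did not pass, except when TMM factors came from genes with 50 control reads. Thymidine kinase Tk1 had 3006 and 2434 reads (0.22, 0.14 to 0.30), and its locus overlaps Afmid (367 and 108 reads) by 585 bases. Thymidylate synthase Tyms was the lowest of the group with 2592 and 2628 reads (-0.10, -0.18 to -0.03). The group summed to 745 CPM in the knockdown library and 618 in the control (log2 0.27, between 0.16 and 0.34 over the scalings). The Rrm2 promoter, that of the second highest ratio, held 0 E2F-type and 0 TTTGAA matches. It is printed with CCAAT letters of either strand in capitals.
Rrm2 (chr12:24708004-24708303, plus strand): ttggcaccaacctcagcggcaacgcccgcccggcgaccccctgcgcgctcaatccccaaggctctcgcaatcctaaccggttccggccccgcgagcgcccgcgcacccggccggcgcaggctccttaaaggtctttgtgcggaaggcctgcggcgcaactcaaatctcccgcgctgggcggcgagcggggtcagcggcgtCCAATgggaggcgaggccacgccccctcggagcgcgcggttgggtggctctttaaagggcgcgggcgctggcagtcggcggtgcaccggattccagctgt

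The subunits of chromatin assembly factor 1, which places new histones behind the fork, did not pass the rule, and both log2 ratios were below 0. Chaf1a had 2685 reads in the knockdown library and 3280 in the control (-0.37, -0.45 to -0.30), and Chaf1b had 1248 and 1421 (-0.27, -0.38 to -0.16). Their summed reads were 158 and 200 CPM (log2 -0.34, between -0.45 and -0.28 over the scalings).

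Other genes of the same processes were read from lists that do not share members with the 44. By the rule used above, 20.7% of all measured genes were higher and 12.3% lower. Of 37 measured genes of initiation, the fork and its chromatin (38 listed), none was higher and 2 were lower, with a median log2 ratio of -0.25. The lower genes were Ticrr, which helps CDC45 onto the ring, with 738 reads in the knockdown library and 1156 in the control (-0.73, -0.87 to -0.60), and Chtf18, part of an alternative clamp loader, with 1055 and 1573 (-0.66, -0.77 to -0.55). Of 33 nucleotide synthesis genes 2 were higher and 1 lower (median -0.00051). Adssl1, the muscle form of an enzyme of adenine nucleotide synthesis, had 917 and 107 reads (3.01, 2.72 to 3.32). The muscle marker genes given above were also higher in the knockdown library, and their part in this value was not tested. The deoxycytidine kinase gene Dck had 1693 and 1037 reads (0.62, 0.51 to 0.74), but it missed the rule with both scalings by total counts and with FPKM. The purine enzyme gene Pfas had 1376 and 2003 reads (-0.63, -0.73 to -0.53) and missed the rule when TMM factors came from genes with 50 control reads.

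Mitosis genes, which act later in the same cycle, also stood mostly within 1.5-fold. Of 28 measured, 1 was higher and 3 were lower, with a median log2 ratio of -0.24 (between -0.35 and -0.18 over the alternatives). By the same rule, 20.7% of all measured genes were higher and 12.3% lower. Log2 ratios were below 0 for 22 of 28 mitosis genes, 21 of the 44 replication genes and 7371 of all 14569 measured genes. They were also below 0 for 27 of the 37 other initiation and fork genes, whose median was -0.25. The difference between these lists was not tested. The higher mitosis gene was the spindle motor Kif11 with 250 and 93 reads (1.34, 0.99 to 1.70), and it missed the rule as FPKM with a pseudocount of 1. The lower genes were the mitotic transcription factor Foxm1 with 1849 and 3054 reads (-0.81, -0.89 to -0.72), the checkpoint kinase Ttk with 891 and 1283 (-0.61) and Kif20a with 746 and 1064 (-0.60). Ttk and Kif20a missed the rule with DESeq2 size factors and with TMM factors from genes with 50 control reads.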

How the data were processed

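The authors deposited raw read counts per gene and FPKM values for 41709 entries with NCBI gene numbers (138 have none), made with Bowtie2 2.2.3, TopHat2 2.0.12 and HTSeq 0.6.1 on build mm10, per the submitters' processing notes. The sources used here do not give the annotation, the strand setting or how multi-mapping reads were handled. In the deposited tables FPKM is the count over a gene length and the library total. The knockdown library held 25829281 reads and the control 22581490. Symbols and coordinates came from RefSeq for GRCm38.p6 (40269 entries matched). Counts were scaled by TMM (edgeR 4.0.16, R 4.3.3), and the ratio used a prior count of 0.5 with a 95% interval from the share of the knockdown reads in both (exact Clopper-Pearson). Such intervals cover counting error only and leave out differences between pools. They also treat each read as a separate molecule, which reads copied by PCR are not. Genes counted as measured had 50 reads in at least 1 library, and those past the rule had a ratio of 1.5 with an interval excluding 1. Ratios of 2 genes have a Woolf interval (scipy 1.17.1), and those pairs were picked after their values were seen. With 1 library per group no p-value, replicate check or set test is given, and counts of genes describe these libraries. Named genes were Prmt5 and Shh, members past the rule, the highest and lowest of each role, the extremes of FPKM, up to 4 genes a direction past the rule in the other lists, Rrm2b and the neighbours of Cdc45 past the rule. Further members and accessory subunits were named after their values were seen. Members and lists were chosen with earlier results of these data known. The ratio and interval were checked on simulated Poisson counts scaled by library totals, which cannot show how they behave with differences between pools or with TMM. Alternatives were size factors of DESeq2 1.42.0, scaling by total counts with all genes or without those of other tissues, TMM on control-expressed genes, a prior count of 5, FPKM with pseudocounts of 0.1 and 1, other read minima and other ratios.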

Additional observations from a re-analysis of the deposited data

How the results depend on the processing

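No paired analysis was possible because each group has 1 library, and for the same reason no replicate could be left out. The median log2 ratio of the 44 genes (0.02) was -0.0888 with total counts, -0.0226 with totals without liver, muscle, red cell and mitochondrial genes, and -0.0886 and -0.0871 with FPKM at pseudocounts of 0.1 and 1, and it was 0.05 with DESeq2 size factors and 0.0866 with TMM on genes with 50 control reads. Total counts moved the median of all measured genes by -0.11 too. The count of lower genes was 0 with TMM on genes with 50 control reads (10.3% of all measured genes), 0 at a ratio of 2 (4.83%) and 6 of 44 at a ratio of 5 to 4 (24.4%). The count of higher genes was 1 at a ratio of 2, when Cdc45 alone passed (14.0% of all measured genes), and 4 at a ratio of 5 to 4 (28.2%). It was 2 without Cdc45, a setting chosen after seeing the data, and Orc5 missed the rule, leaving 2, under total counts (18.3%) and under FPKM with a pseudocount of 0.1 (18.0%) or 1 (14.6%). No call of a member changed sign under any scaling, prior count or FPKM setting. The scalings could not have changed one, since they moved all log2 ratios together by between -0.11 and 0.07. The called ratio of smallest size was that of Pole at -0.63. The medians of the mitosis list and of the other fork and initiation list, also larger in size than these shifts, kept their sign. That of the nucleotide list, -0.00051, ran between -0.11 and 0.07. Over the scalings and FPKM settings, between 0 and 3 nucleotide genes, between 1 and 5 mitosis genes and between 2 and 4 other fork and initiation genes were lower, where TMM gave 1, 3 and 2. Higher genes numbered between 1 and 3, between 0 and 1 and between 0 and 1 in these lists, where TMM gave 2, 1 and 0. Over the same settings, between 10.3% and 16.7% of all measured genes were lower and between 14.6% and 22.4% higher. The ring of MCM genes, the clamp group, the Okazaki enzymes and the CDC45 group had summed ratios whose sign depended on the scaling. Depth limits little for the 44 genes, and the absence of a second pool limits all comparisons.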

Other observations

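Members lay unevenly over the chromosomes. Chromosome 5 held 8 of the 44 genes (18.2%, against 6.35% of measured genes), Rfc1, Rfc2, Rfc3, Rfc5, Mcm7, Orc5, Pole and Tyms, and chromosome 8 held 6 (13.6%, against 5.37%), Cdt1, Gins2, Gins3, Gins4, Mcm5 and Orc6. The median log2 ratios of these members were -0.17 and -0.10.

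Longer genes had slightly lower ratios. The Spearman rho of the log2 ratio with gene length was -0.18 over the 44 genes and -0.22 over all measured genes, a description over genes of the same 2 libraries. The 11 longest members (3548 to 7124 bp) had a median of -0.10 with 7 below 0, and the 11 shortest (638 to 1533 bp) had 0.06 with 3 below 0.

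Of the 44 genes, 13 overlap another measured gene. Afmid, next to Tk1, had a log2 ratio of 1.68 and Ufd1, next to Cdc45, had 2.69, whereas the other overlapped genes stayed between -0.48 (Ap4m1, beside Mcm7) and 0.33 (Eif4a2, beside Rfc4).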
